A study of Mus musculus with 8 samples.

Results

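Fc receptors are the proteins through which leukocytes bind the constant part of antibodies. The genes described here encode receptors for IgG (Fcgr1, Fcgr2b, Fcgr3 and Fcgr4), the low-affinity IgE receptor (Fcer2a, or CD23) and the common gamma chain (Fcer1g). They were taken as every probe set that the platform annotation assigns to exactly 1 of these 6 gene symbols, which gave 12 of the 45101 probe sets on the array, for 6 of 18194 genes named by probe sets with 1 symbol. Fcgr2b had 5 probe sets, Fcgr1 and Fcer2a had 2 each, and Fcgr3, Fcgr4 and Fcer1g had 1 each. Of the 12, 11 were bright enough to be tested. The remaining Fcgr2b probe set, 1447622_at, had a signal of at most 11.5 in any sample and lay below the filter.

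RNA of spleen cells from 8-week-old male mice was hybridised to Affymetrix mouse expression arrays, 1 array per sample. The Yaa group was 4 samples of strain B6.SB-Yaa/J, C57BL/6 mice whose Y chromosome carries the Yaa mutation, a known copy of an X chromosome segment that includes Tlr7. The wild-type group was 4 samples of C57Bl/6J mice. The comparison asks which genes differ in expression with Yaa. No treatment was given to either group in the labels, red cells had been lysed, and each sample was 1 spleen except Yaa 3, a pool of 2. The source label of Yaa 2 speaks of males in the plural, although the study's text gives the pool as Yaa 3 only. Other genetic differences between the strains were not analysed here, so a difference between the groups need not come from the Yaa chromosome.

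The activating receptors Fcgr1, Fcgr3 and Fcgr4 carry no signalling motif of their own and rely on the gamma chain, whose tyrosine activation motif recruits the kinase Syk, and mouse macrophages, monocytes and neutrophils use them to take up antibody-coated particles. Fcgr2b is the inhibitory IgG receptor. Its tyrosine inhibition motif recruits the phosphatase SHIP-1, it is the IgG receptor of mouse B cells, and it is also found on myeloid cells. CD23 is a lectin-type receptor of mature B cells that does not use the gamma chain.

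Signals below are the deposited MAS5 signals, an intensity per probe set, after quantile normalisation of the 8 arrays. The deposited arrays were not on a common level, with trimmed mean signals of 106.9 to 193.1. Fold changes are differences of mean log2(signal + 16), Yaa minus wild type, a scale on which dim probe sets change less than their signals do, and their standard errors (SE) and p-values come from limma over all 22518 tested probe sets. On the first principal component Yaa 2 lay at 68.8 and Yaa 3 at -92.4, far from the rest. The labels were checked by Tlr7, which had signals of 244, 349, 181 and 217 in Yaa 1 to 4, against 143, 109, 135 and 99.4 in wild type 1 to 4. All 4 Yaa samples were above all wild-type samples. In whole spleen cell suspensions, a change in the number of cells of a type and a change in RNA per cell cannot be told apart.

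By their brightest probe sets, the genes for the activating receptors and the gamma chain had higher means in Yaa, and those for the inhibitory receptor and CD23 did not. The other tested probe sets of the inhibitory receptor gene Fcgr2b had higher means, at log2 fold changes of 0.050, 0.27 and 0.11. No probe set of the 6 genes passed the test over the whole array. By limma's adjusted p at a threshold of 0.05, 0 of 11 tested probe sets were called, and 0.00444% were called over the array (1 of 22518). At an unadjusted p under 0.05, 3 of 11 were higher in Yaa and 0 were lower, against 2.97% and 1.76% over the array (4.73% in either direction). The 3 belonged to Fcgr4, Fcgr3 and Fcer1g. For Fcgr4 and Fcgr3, 2 of 11, every Yaa sample lay above every wild-type sample, against 2.43% over the array, and for 0 of 11 every Yaa sample lay below, against 1.67% (4.1% in either direction). Higher means in Yaa were found for 8 of 11, against 47.6%. Both counts depend on the scaling: with the signals as deposited, where the median log2 fold change of all tested probe sets was -0.20 and not -0.011, they were 1 and 0, and with median-centred arrays, where it was -0.11, they were 1 and 1. Without wild type 4 the first count was 1.

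**Figure D1:**
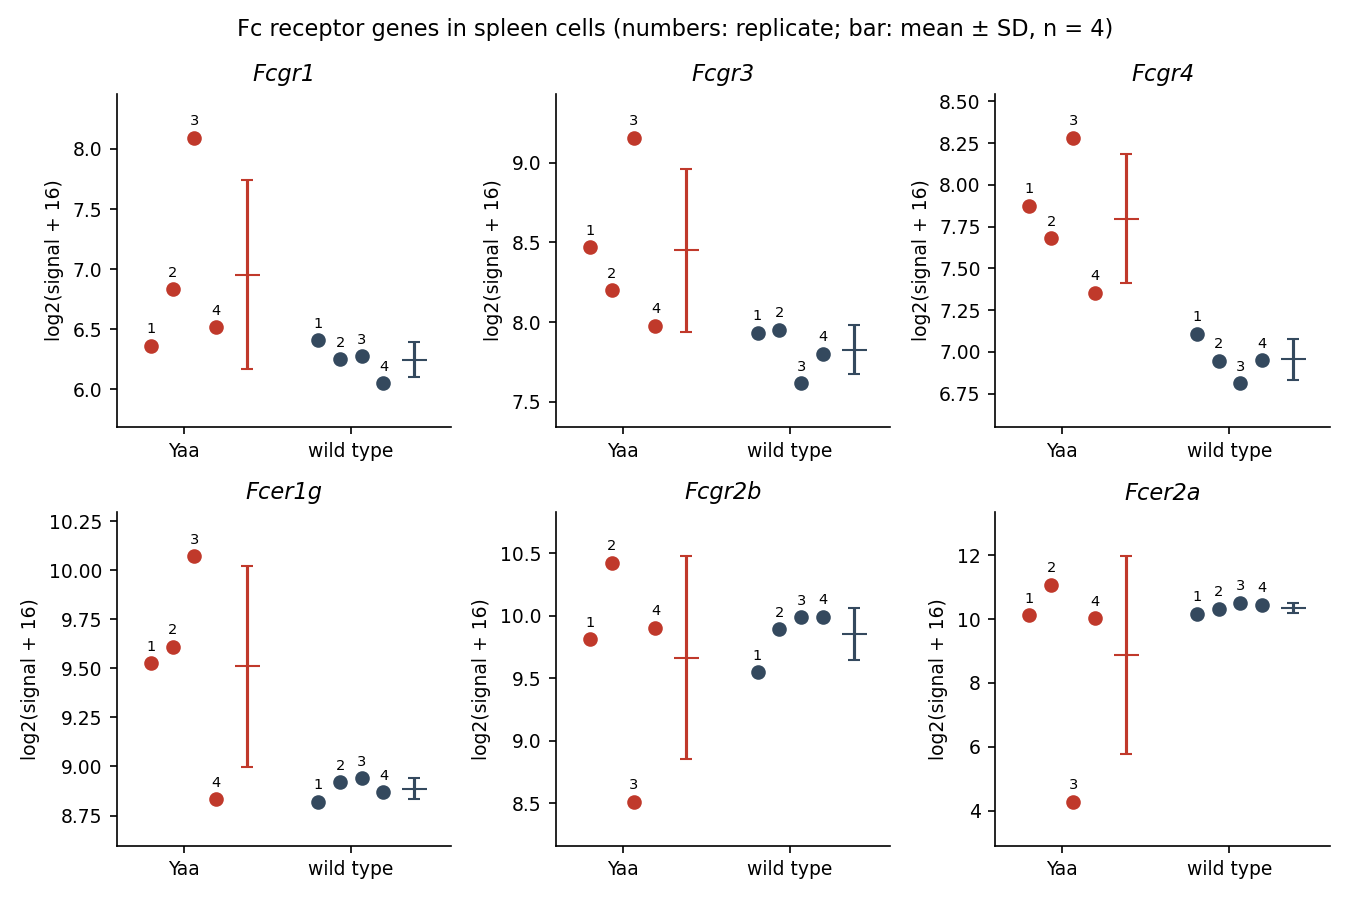
Levels of the 6 genes as log2(signal + 16) in each sample, Yaa on the left and wild type on the right of each panel, with the probe set of highest mean signal for each gene; numbers are replicates and bars are the mean ± SD of 4 samples. Fcgr3 and Fcgr4 do not overlap between the groups, Yaa 3 is the highest Yaa sample for Fcgr1, Fcgr3, Fcgr4 and Fcer1g, and Yaa 3 is the lowest sample for Fcgr2b and Fcer2a.

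The promoter windows of 5 of the genes are shown, with Fcer1g left out. They are 300 bases from RefSeq, build GRCm38.p6, from 250 bases before to 50 after an annotated start, and all 6 genes had such a window. Capitals mark 2 kinds of match. The core of PU.1, the transcription factor of myeloid and B cells, was searched as GAGGAA on both strands, and 28.3% of all 32851 windows hold it. STAT sites, bound by factors that act downstream of interferons and interleukins, were searched as TTCNNNGAA, held by 8.3% of windows, and as TTC and GAA with 4 bases between, the spacing known for Stat6, held by 6.95%. Both read the same on either strand, and no match overlapped another. The windows are Fcgr4 at chr1:171018676-171018975 on the plus strand, Fcgr3 at chr1:171059354-171059653, Fcgr1 at chr3:96293920-96294219, Fcgr2b at chr1:170976022-170976321 and Fcer2a at chr8:3690812-3691111, the last 4 on the minus strand and all printed 5′ to 3′ along the gene.
Fcgr4: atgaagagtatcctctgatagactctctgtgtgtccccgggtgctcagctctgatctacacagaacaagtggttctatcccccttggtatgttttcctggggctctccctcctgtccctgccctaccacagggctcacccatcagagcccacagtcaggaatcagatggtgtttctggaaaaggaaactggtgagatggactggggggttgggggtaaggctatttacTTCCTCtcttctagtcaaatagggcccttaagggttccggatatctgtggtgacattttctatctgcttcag
Fcgr3: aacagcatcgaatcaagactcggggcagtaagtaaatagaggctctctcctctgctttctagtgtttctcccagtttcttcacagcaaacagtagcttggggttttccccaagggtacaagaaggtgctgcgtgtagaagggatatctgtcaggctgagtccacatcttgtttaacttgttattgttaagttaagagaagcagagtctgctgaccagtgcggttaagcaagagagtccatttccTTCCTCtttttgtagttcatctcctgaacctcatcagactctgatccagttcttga
Fcgr1: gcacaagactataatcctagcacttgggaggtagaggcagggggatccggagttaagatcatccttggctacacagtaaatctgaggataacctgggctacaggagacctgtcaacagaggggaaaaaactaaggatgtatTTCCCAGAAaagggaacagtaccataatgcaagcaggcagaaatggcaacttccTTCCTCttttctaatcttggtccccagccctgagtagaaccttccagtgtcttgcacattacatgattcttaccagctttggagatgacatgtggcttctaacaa
Fcgr2b: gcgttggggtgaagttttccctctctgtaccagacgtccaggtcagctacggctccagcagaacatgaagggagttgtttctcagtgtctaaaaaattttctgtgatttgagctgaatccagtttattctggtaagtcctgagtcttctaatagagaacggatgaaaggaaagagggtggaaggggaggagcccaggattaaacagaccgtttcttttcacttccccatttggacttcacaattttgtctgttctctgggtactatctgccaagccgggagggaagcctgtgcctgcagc
Fcer2a: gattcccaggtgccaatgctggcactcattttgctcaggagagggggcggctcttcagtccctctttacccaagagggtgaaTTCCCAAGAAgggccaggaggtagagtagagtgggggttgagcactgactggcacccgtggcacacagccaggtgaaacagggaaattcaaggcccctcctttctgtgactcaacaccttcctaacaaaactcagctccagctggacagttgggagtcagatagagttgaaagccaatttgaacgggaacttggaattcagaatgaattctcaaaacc
Each window of the 3 activating receptors held the PU.1 core, starting 22 bases before the start in Fcgr4, 6 in Fcgr3 and 55 in Fcgr1. The Fcgr1 window also held TTCCCAGAA, a STAT match that begins 109 bases before the start. No window of Fcgr2b, Fcer1g or Fcer2a held the PU.1 letters. The Fcer1g window held no STAT match either. Whether these letters bear on the differences between the groups was not tested. Of the 3 annotated Fcer2a starts, the printed start 2 had TTCCCAAGAA, with the wider STAT spacing, 168 bases upstream. Start 1 of Fcer2a, at the 5′ end of the annotated gene, and start 3 were not printed and had no match. Fcgr3 has 2 annotated starts in the table, which share the same PU.1 match. The Fcgr3 starts and the printed Fcer2a start lie kilobases inside the annotated gene. The other printed starts lie at the 5′ end of theirs. A match is a run of letters and not a measured binding site.

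Fcgr4 encodes an activating IgG receptor of monocytes, macrophages and neutrophils in mice. Its probe set 1425225_at had signals of 219, 189, 295 and 148 in Yaa 1 to 4, against 122, 107, 96.5 and 108 in wild type 1 to 4. The lowest Yaa sample, Yaa 4, was above the highest wild-type sample. The log2 fold change was 0.84 ± 0.20 (SE), or 1.79-fold (limma adjusted p = 0.568), and two-sided exact permutation of the 8 samples gave p = 0.0286, the smallest p that 70 arrangements allow. By unadjusted p it ranked 78 among the 22518 probe sets. When limma weighted the arrays by their agreement with the fit (0.22 for both Yaa 2 and Yaa 3), Fcgr4 passed over all probe sets at 0.80 ± 0.14 (SE; limma adjusted p = 0.039). In that fit 0.453% of probe sets were called higher and 1 of 11 Fc receptor probe sets was. Without Yaa 3 the log2 fold change was 0.68, and without Yaa 2 and Yaa 3 together it was 0.66.

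Fcgr3 encodes the low-affinity activating IgG receptor. Its only probe set, 1448620_at, had signals of 338, 278, 555 and 236 in Yaa 1 to 4, against 229, 232, 181 and 207 in wild type 1 to 4. Again the groups did not overlap, but Yaa 4 exceeded wild type 2 by only a few signal units and Yaa 3 was far above the rest. The log2 fold change was 0.62 ± 0.24 (SE), or 1.54-fold (limma adjusted p = 0.997; exact permutation p = 0.0286). Without Yaa 3 the log2 fold change was 0.39, and with the signals as deposited the groups overlapped at a log2 fold change of 0.41.

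Fcer1g encodes the gamma chain itself, which the activating receptors need to reach the cell surface. Its probe set 1418340_at had signals of 722, 765, 1061 and 440 in Yaa 1 to 4, against 436, 468, 475 and 451 in wild type 1 to 4. Yaa 1, Yaa 2 and Yaa 3 lay above every wild-type sample, while Yaa 4 lay within the wild-type range. The log2 fold change was 0.62 ± 0.23 (SE; limma adjusted p = 0.997; exact permutation p = 0.114). The wild-type samples lay close together, and the SD on the log2 scale was 0.51 in Yaa and 0.053 in wild type. Without Yaa 4 the log2 fold change was 0.85, without Yaa 3 it was 0.43, and without Yaa 2 and Yaa 3 together it was 0.29.

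Fcgr1 encodes the high-affinity IgG receptor of monocytes and macrophages, and its probe sets disagreed. Probe set 1417876_at had signals of 66.3, 97.9, 257 and 75.6 in Yaa 1 to 4, against 68.8, 60.1, 61.4 and 50.4 in wild type 1 to 4. Yaa 3 was far above all other samples, and Yaa 1 lay within the wild-type range. The log2 fold change was 0.71 ± 0.34 (SE; limma adjusted p = 0.997; exact permutation p = 0.0571), and it was 0.33 without Yaa 3 and 0.20 without Yaa 2 and Yaa 3. The dimmer probe set 1436625_at had signals of 30.3, 38.4, 86.7 and 26.1 in Yaa 1 to 4, against 39.6, 35.4, 50.7 and 38.1 in wild type 1 to 4. It was highest in Yaa 3 as well, yet Yaa 1 and Yaa 4 were below all wild-type samples, and the log2 fold change was 0.020 ± 0.27 (SE). Without Yaa 3 its sign turned, to -0.27.

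**Figure D2:**
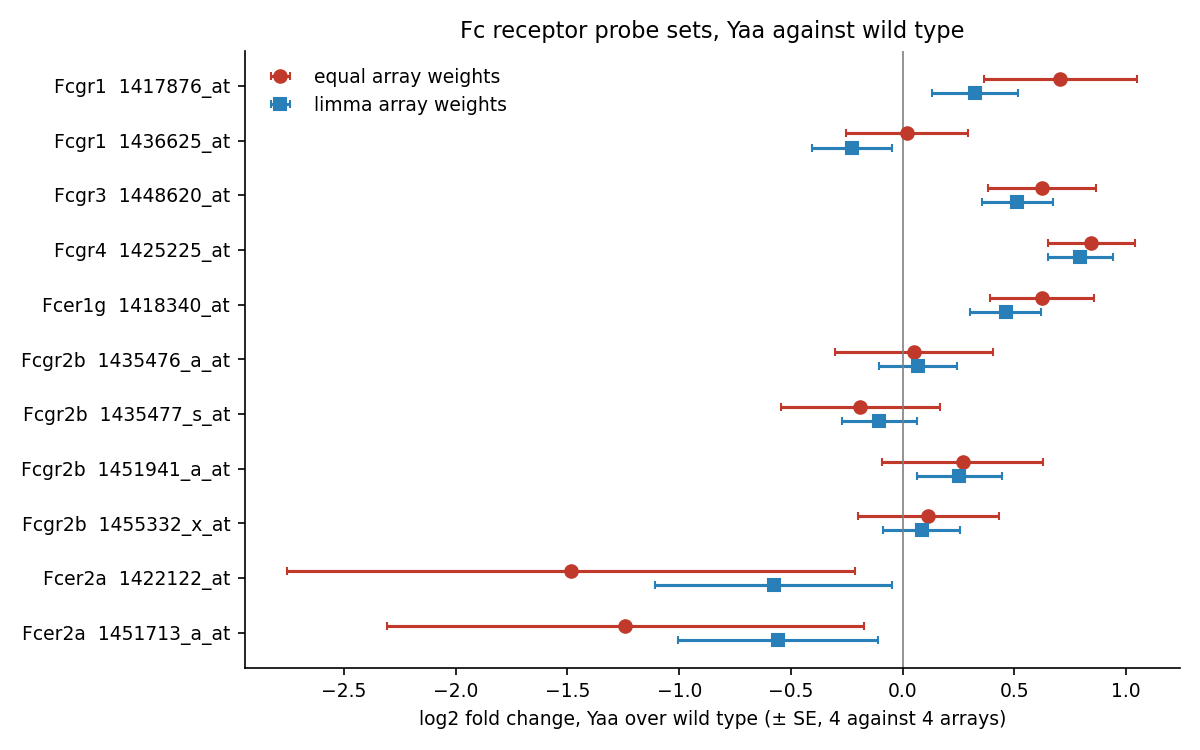
Log2 fold change, Yaa over wild type, of the 11 tested probe sets with its SE, with equal weights for all arrays (circles) and with limma array weights (squares). Fcgr3, Fcgr4, Fcer1g and the brighter Fcgr1 probe set lie right of 0 in both fits, the 4 tested Fcgr2b probe sets lie between -0.19 and 0.27, and both Fcer2a probe sets lie left of 0 with the widest errors.

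Fcgr2b, the inhibitory receptor, showed no difference of means beyond its spread. Its brightest probe set 1435477_s_at had signals of 881, 1358, 349 and 942 in Yaa 1 to 4, against 732, 933, 997 and 1001 in wild type 1 to 4. The highest and the lowest of all 8 samples were both Yaa, Yaa 2 and Yaa 3. The log2 fold change was -0.19 ± 0.36 (SE; limma adjusted p = 0.997; exact permutation p = 0.771). The other tested probe sets had log2 fold changes of 0.050 (1435476_a_at), 0.27 (1451941_a_at) and 0.11 (1455332_x_at), and in each of them Yaa 2 was also the highest and Yaa 3 the lowest sample. Probe sets whose names end in _s_at or _x_at can hold probes that match other transcripts, and the IgG receptor genes resemble each other in sequence. The sign of 1435477_s_at depended on Yaa 3. Without Yaa 3 it had 0.19, and the others in the same order had 0.41, 0.61 and 0.41, of which 1451941_a_at had an unadjusted limma p of 0.029 (limma adjusted p = 0.665). Without Yaa 2 and Yaa 3 together 1435477_s_at had 0.0030.

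For Fcer2a, the CD23 gene, the difference of means rested on Yaa 3. Probe set 1422122_at had signals of 1092, 2133, 3.48 and 1026 in Yaa 1 to 4, against 1127, 1259, 1444 and 1375 in wild type 1 to 4. Yaa 3 was near 0, Yaa 2 was the highest of all samples, and Yaa 1 and Yaa 4 lay just below the wild-type samples. Probe set 1451713_a_at gave the same order at its extremes, with 445, 911, 0.81 and 428 in Yaa 1 to 4, against 440, 547, 646 and 570 in wild type 1 to 4. The log2 fold changes were -1.48 ± 1.27 and -1.24 ± 1.07 (SE; limma adjusted p = 0.997 each; exact permutation p = 0.571 and 0.600). Leaving out Yaa 3 gave 0.045 and 0.033, and leaving out Yaa 2 as well gave -0.28 and -0.31, where 1422122_at had an unadjusted limma p of 0.035 (limma adjusted p = 0.502).

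**Figure D3:**
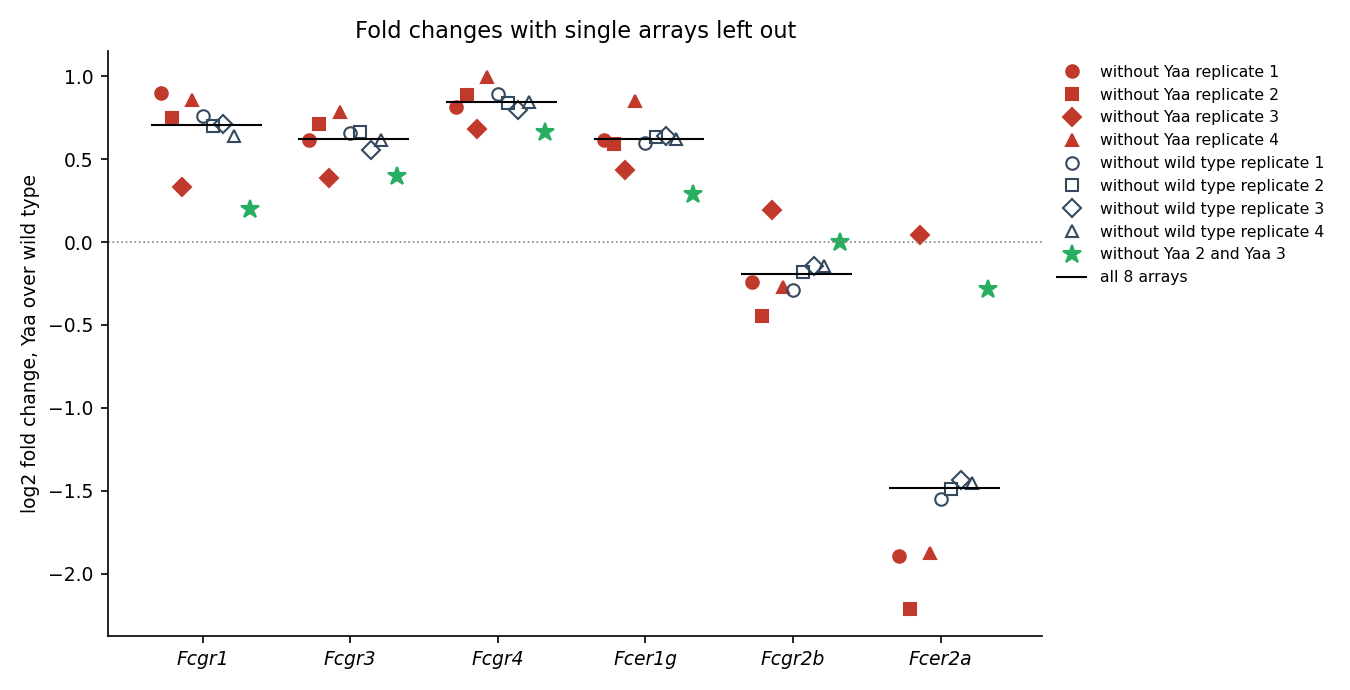
Log2 fold change, Yaa over wild type, of each gene's brightest tested probe set with all 8 arrays (lines), with 1 array left out (filled symbols for Yaa, open symbols for wild type) and without Yaa 2 and Yaa 3 together (stars). Fcgr4 stays between 0.66 and 0.99, while Fcer2a moves to 0.045 and Fcgr2b to 0.19 when Yaa 3 is left out.

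Whether the activating genes changed by more than the inhibitory gene was tested by the difference between their log2 levels in each sample. Fcgr4 minus Fcgr2b was -1.93, -2.74, -0.23 and -2.55 in Yaa 1 to 4, against -2.44, -2.94, -3.17 and -3.04 in wild type 1 to 4. Yaa 2 and Yaa 4 fell within the wild-type range, and the group means differed by 1.03 (exact permutation p = 0.0857, and 0.286 adjusted over the 4 differences tested). The mean differences for Fcgr1, Fcgr3 and Fcer1g were 0.90, 0.81 and 0.81 (exact permutation p = 0.257, 0.286 and 0.229, and 0.286 each adjusted). In all 4, Yaa 3 was the highest sample. Without Yaa 3 the 4 mean differences were 0.49 for Fcgr4, 0.14 for Fcgr1, 0.20 for Fcgr3 and 0.24 for Fcer1g. An unequal change of activating and inhibitory genes was therefore not shown with these samples.

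Markers of myeloid cells were set beside the Fc receptors in the same samples. Of 14 tested monocyte and macrophage markers, 11 had higher means in Yaa, 4 at an unadjusted p under 0.05, and limma called 0 (1 with array weights). Their summed signal was 18047 to 25456 in Yaa and 15862 to 19641 in wild type. The 4 with the smallest p were Lyz2, a lysozyme (0.98 ± 0.19, log2 fold change ± SE), the integrin gene Itgam (0.91 ± 0.25), the coagulation factor gene F13a1 (1.05 ± 0.32) and the chemokine receptor gene Ccr2 (0.90 ± 0.28). None of the 4 overlapped between the groups, but they were picked by p from the same values. Over the array, 2.43% of tested probe sets were higher without overlap and 2.97% were higher at an unadjusted p under 0.05. With array weights 0.453% were called higher. Of all tested genes, 45.8% had a higher mean in Yaa. These shares also stand beside the counts of the lists below. Ms4a6c, named after its values were seen, went the other way, at 33.5 in Yaa 3 against 828 to 1387 in the other 7 samples. All 12 tested neutrophil markers had higher means, 8 at an unadjusted p under 0.05, with 0 called (10 with array weights), and a summed signal of 13294 to 56171 in Yaa and 8702 to 14419 in wild type. Markers of splenic resident macrophages had higher means for 12 of 13, 1 of them at an unadjusted p under 0.05, and a summed signal of 6262 to 17764 in Yaa and 6924 to 7359 in wild type. Of this list the highest sample was Yaa 3, as for the activating receptors, and without Yaa 3 its mean difference was -0.050 on the log2 scale. The mean log2 level of the monocyte and macrophage list was highest in Yaa 2 (9.58), and that of the neutrophil list in Yaa 1 (10.70). Those of the NK cell list (9.15) and of the mast cell and basophil list (6.89) were also highest in Yaa 3. The part of these cell types in the differences of the Fc receptor genes was not tested.

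B cell markers were lowest in Yaa 3, as Fcer2a was. All 12 tested genes had lower means in Yaa, 0 at an unadjusted p under 0.05, limma called 0, and the summed signal was 1014 (Yaa 3) to 31291 (Yaa 2) in Yaa and 18018 to 25174 in wild type. In Yaa 3 the B cell genes Ms4a1, Pou2af1 and Ebf1, named after their values were seen, had signals of 0.87, 0.34 and 1.22, at or near 0 like Fcer2a. The list's mean difference was 0.012 on the log2 scale without Yaa 3. The 11 tested T cell markers were also all lower in mean, with a summed signal of 549.6 (Yaa 3) to 14169 in Yaa and 6207 to 10866 in wild type. Their mean difference was -0.64 on the log2 scale with all samples and turned to 0.24 without Yaa 3. Fcgr2b, which both B cells and myeloid cells express, was less reduced in Yaa 3 than Fcer2a, at 349 against 732 to 1001 in wild type. Of 7 tested mast cell and basophil markers 6 had higher means and 4 had an unadjusted p under 0.05, among them Hdc (1.77 ± 0.35) and Mcpt8 (1.13 ± 0.26). Over the array, 2.97% of tested probe sets were higher at an unadjusted p under 0.05. Limma called 0 of these markers (2 with array weights, against 0.453% called higher over the array). Their summed signal was 551.1 to 1077 in Yaa and 402.1 to 460.9 in wild type. The part of B, T, mast cell and basophil markers in the Fc receptor values was not tested.

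**Figure D4:**
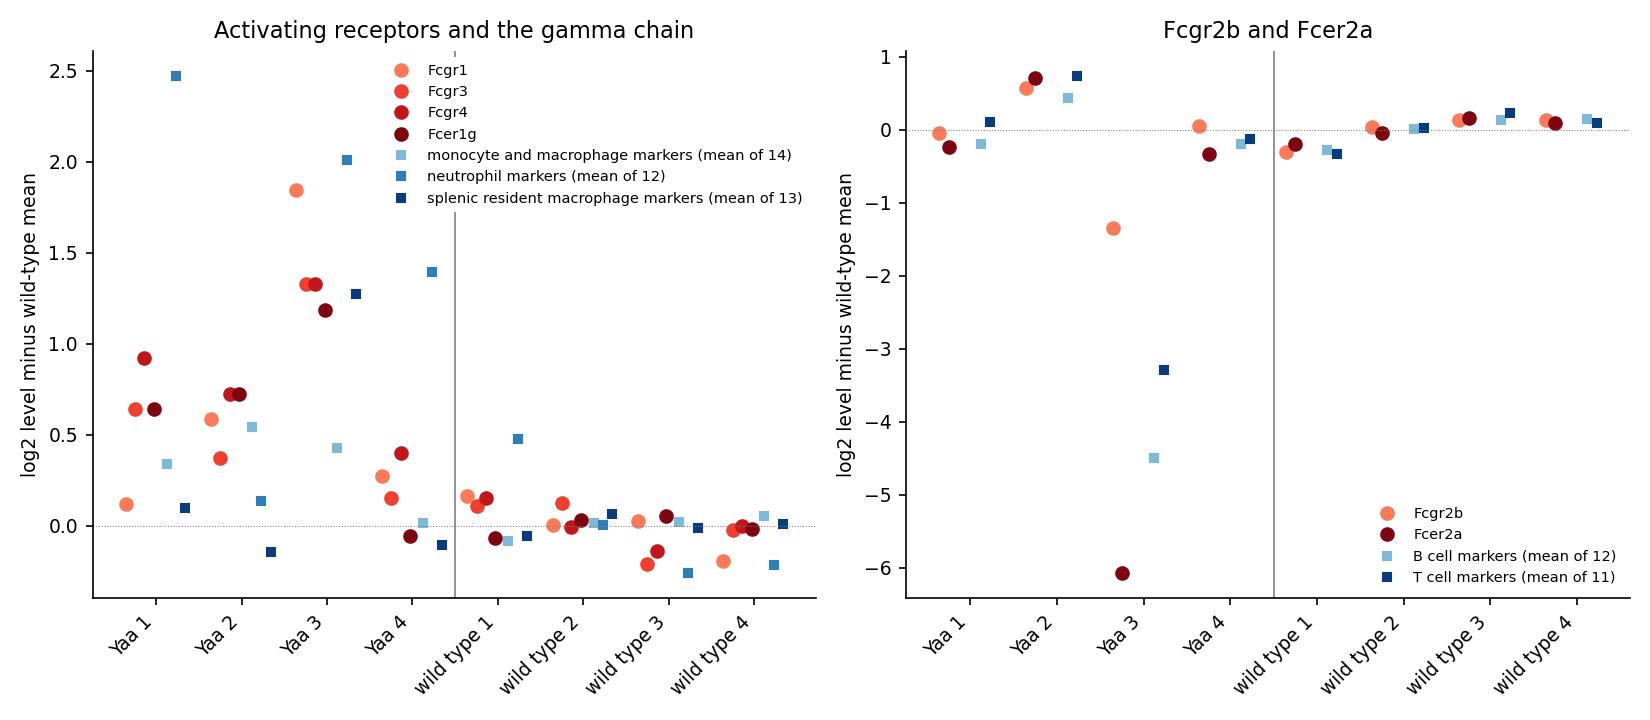
Log2 level minus the wild-type mean in each sample, for the activating receptor genes and the gamma chain beside 3 myeloid marker lists (left panel) and for Fcgr2b and Fcer2a beside B and T cell marker lists (right panel); circles are genes, squares are list means. Yaa 3 is the highest sample for Fcgr1, Fcgr3, Fcgr4 and Fcer1g, and Fcer2a and the B cell and T cell lists are lowest in Yaa 3.

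Genes of the signalling pathway around the receptors were described by counts, beside a median log2 fold change of -0.019 over all 10340 tested genes. Of these, 45.8% had a higher mean in Yaa, and 2.97% of tested probe sets were higher at an unadjusted p under 0.05. Kinases and adaptors downstream of the activation motif had a median of -0.12 over 18 genes, of which 4 had higher means, 0 had an unadjusted p under 0.05 and 0 were called. The list's mean difference was -0.090 with all samples and turned to 0.091 without Yaa 3. The kinase gene Fgr had 0.49 ± 0.22 and the adaptor gene Lcp2 0.35 ± 0.18, and the kinase genes Btk and Tec had -0.30 ± 0.17 and -0.67 ± 0.39. Of the inhibitory phosphatases and adaptors 5 of 8 had higher means, with a median of 0.020, and 1 had an unadjusted p under 0.05, the adaptor gene Dok2 at 0.40 ± 0.17. The mean difference of these genes turned as well, at -0.054 with all samples and 0.078 without Yaa 3. Inpp5d, which encodes SHIP-1 and was named for its link to Fcgr2b after its values were seen, had 0.067. The phagocyte oxidase genes had a median of -0.25 over 5 genes with 0 at an unadjusted p under 0.05, Cybb having 0.32 ± 0.23, and their mean difference was -0.092 with all samples and 0.15 without Yaa 3.

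Other receptors that share the gamma chain or its kind of signalling differed among themselves. In the list of gamma chain partners and sister adaptors 5 of 8 tested genes had higher means, with a median of 0.31, and 2 had an unadjusted p under 0.05. They were the lectin receptor genes Clec4d, at 334, 779, 943 and 305 in Yaa 1 to 4 against 180, 177, 186 and 177 in wild type 1 to 4, and Clec4e, at 318, 754, 689 and 228 in Yaa 1 to 4 against 130, 177, 171 and 157 in wild type 1 to 4. Every Yaa sample was above every wild-type sample for both genes, which were picked by p from the same values, against 2.43% over the array. Their log2 fold changes were 1.46 ± 0.35 and 1.40 ± 0.36 (SE). Both are known as receptors of activated myeloid cells that sense microbial lipids. Tyrobp, which encodes the sister adaptor DAP12, had 0.55 ± 0.25, and the platelet collagen receptor gene Gp6 had -0.40 ± 0.27. Among other receptors with inhibitory tyrosine motifs 5 of 9 had higher means and 1 an unadjusted p under 0.05, the myeloid lectin gene Clec4a2 at 0.89 ± 0.30. The list of inhibitory receptors had a median of 0.29 but a mean difference of -0.084, which turned to 0.16 without Yaa 3. Over the array, 2.97% of tested probe sets were higher at an unadjusted p under 0.05. Limma called 0 genes of either list.

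The genes linked to antibody and to CD23 were described in the same way. The list of other immunoglobulin receptors had a median of -0.76 over 6 genes with 0 at an unadjusted p under 0.05, among them the IgM receptor gene Fcmr at -1.83 ± 1.51 and the B cell gene Fcrla, a neighbour of Fcgr2b on chromosome 1, at -1.37 ± 1.03. Without Yaa 3 the list's mean difference was -0.057. Of the immunoglobulin heavy chain genes 3 had a tested probe set of their own, of which 1 had a higher mean, with a median of -0.90 and 0 at an unadjusted p under 0.05. Ighm, the IgM heavy chain, had -0.99 ± 0.92 and Igha, the IgA heavy chain, had -0.90 ± 1.51. The list's mean difference was -0.40 with all samples and 0.83 without Yaa 3. Ighg3, an IgG heavy chain, had signals of 1449, 339, 56.5 and 363 in Yaa 1 to 4, against 197, 257, 190 and 162 in wild type 1 to 4. Yaa 1, Yaa 2 and Yaa 4 were above all wild-type samples and Yaa 3 was below them, at a log2 fold change of 0.69 ± 0.74. Of the CD23 partners and inducers 1 of 6 had a higher mean, with 0 at an unadjusted p under 0.05, and Cr2, whose product CD21 is a ligand of CD23, had 3.67 in Yaa 3 and a log2 fold change of -1.30 ± 1.25. The mean difference of the CD23 list was -0.26 with all samples and 0.095 without Yaa 3. The inducers of IgG receptor genes had higher means for 7 of 8, with a median of 0.27. The myeloid transcription factor genes Cebpa (0.48 ± 0.16) and Cebpb (0.71 ± 0.24) had an unadjusted p under 0.05, against 2.97% higher over the array. Limma called 0 genes of these lists.

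**Figure D5:**
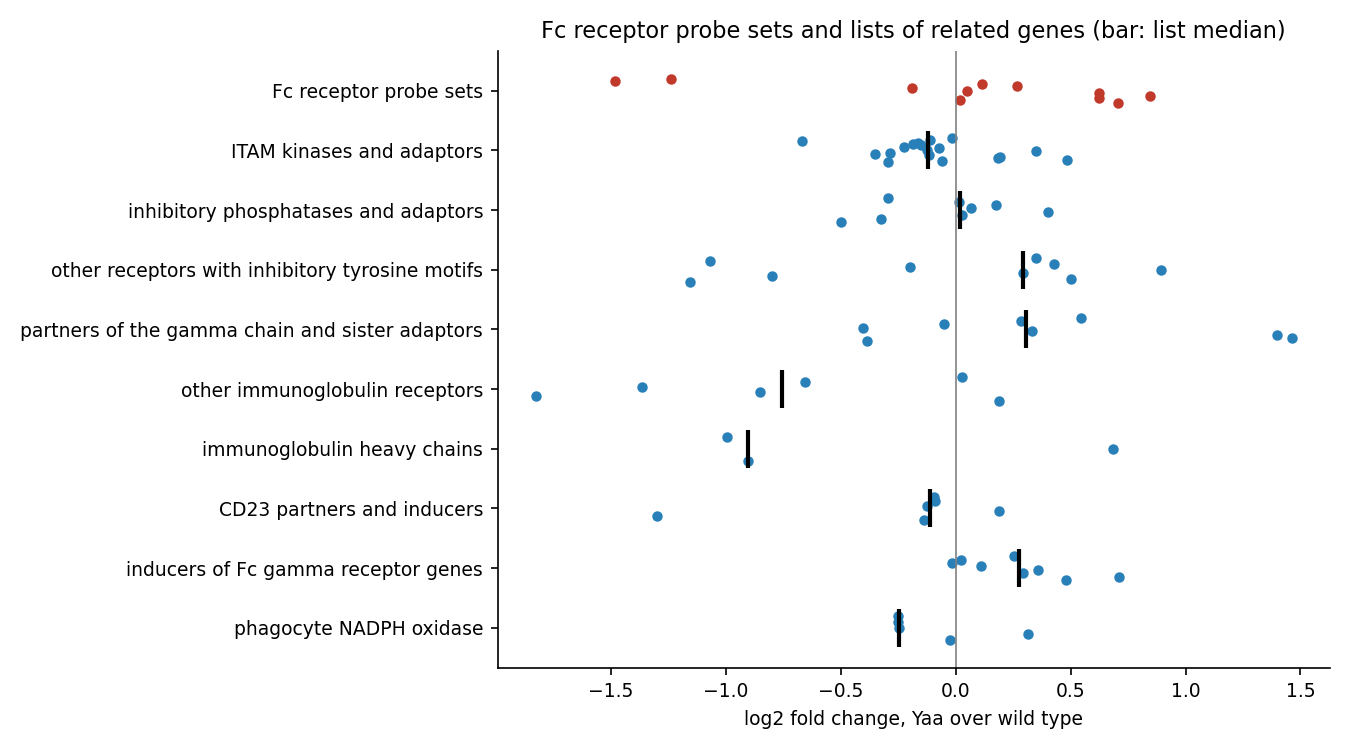
Log2 fold change, Yaa over wild type, of the 11 tested Fc receptor probe sets (top) and of the tested genes of 9 lists of related genes (1 point per gene, bars at the list medians). The points farthest right of 0 are Clec4d and Clec4e, and those farthest left are Fcmr and the Fcer2a probe set 1422122_at.

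Of the 6 genes 4 are neighbours. Fcgr2b, Fcgr4, Fcgr3 and Fcer1g span 11 protein-coding genes on chromosome 1, with Fcgr2b, Fcgr4 and Fcgr3 adjacent, while Fcgr1 is on chromosome 3 and Fcer2a on chromosome 8. Of the genes within 10 on either side of these 4, 15 were tested. Their log2 fold changes ran from -1.37 (Fcrla) to 0.64, with a median of 0.024, and 0 had an unadjusted p under 0.05.

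The genes whose levels followed each receptor most closely over the 8 samples were found by Pearson correlation among 10334 tested genes, as a description. The coefficients share Yaa 2 and Yaa 3, which stood apart, and the 99th percentile over all genes was already 0.88 to 0.98. For Fcer1g the closest were Slpi, a secreted protease inhibitor, Alox5ap, of leukotriene synthesis, and Anxa2, with r from 0.991 to 0.993. For Fcgr4 they were Cox5a, F13a1 and Hk2, a hexokinase, with r from 0.974 to 0.981, and for Fcgr3 they were Dmxl2, Stx11 and Cpa3, a mast cell protease, with r from 0.976 to 0.982. For Fcgr1 they were Naf1, Pnpla2 and Rap2b (0.974 to 0.983). Fcgr2b was followed by Tle4, 2410006H16Rik and Man1a at 0.996 each, and Fcer2a by the B cell transcription factor gene Spib, Ighv14-2 and Fcmr at 0.999 each.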

How the data were processed

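Per the labels, Trizol and column RNA of spleen cells was labelled with biotin and hybridised. The authors deposited MAS5 signals, a linear intensity for each probe set; MAS5 is named in the submitters' processing notes. Its version and scaling target: not given in the sources used here. Detection calls were not used. All 8 arrays were quantile normalised and taken as log2(signal + 16). After removal of 64 controls, only probe sets brighter on average than the median one were kept (22518). The groups were compared by limma 3.58.1 in R 4.3.3 (lmFit, eBayes with trend, Benjamini-Hochberg adjustment over all tested probe sets, threshold 0.05). The fit was tested on simulated data. Single values were tested by exact two-sided permutation over 70 arrangements. The number of arrays limits the precision, and nothing but the labels says how far samples were independent.

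Gene names came from the platform annotation, and Entrez IDs brought the symbols to those of GRCm38.p6. A gene's tested probe set of highest mean signal stood for it. The members, the 19 gene lists and the tests were chosen with earlier results of these data known. Named are all member probe sets, Tlr7, up to 4 genes of smallest p per list and the 3 genes most correlated with each member; others are marked. The lists were monocyte and macrophage, neutrophil, resident macrophage, dendritic, B, marginal zone B, T, NK, mast and plasma cell markers and the 9 pathway lists. Alternatives were other pseudocounts, filters, scalings and variance models, array weights, a replicate block, the mean over probe sets and left-out samples; the counts of Fc receptor probe sets under them were added after seeing the data. No 2 arrays held the same values.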

Additional observations from a re-analysis of the deposited data

Results flagged for a closer look

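Of 30 groups of 4 samples examined for a value far from the other 3, 2 had one, and chance gives about 1 in 20. Both were Yaa 3, the pool of 2 spleens. The Fcer2a probe set 1422122_at had a signal of 3.48 in Yaa 3, against 1026 to 2133 in the other Yaa samples. Fcgr1 minus Fcgr2b was -0.42 on the log2 scale in Yaa 3, against -3.59 to -3.39 in the other Yaa samples.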

How the results depend on the processing

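By the probe set that stood for each gene, or the mean over its probe sets, Fcgr1, Fcgr3, Fcgr4 and Fcer1g had a higher mean in Yaa under every alternative run (20 for Fcgr1, which the stricter brightness filter removed, and 21 each for the others). With 1 sample left out their log2 fold changes ran from 0.33 to 0.90, 0.39 to 0.78, 0.68 to 0.99 and 0.43 to 0.85. The dimmer Fcgr1 probe set 1436625_at did not keep this direction. It had -0.23 with array weights, -0.27 without Yaa 3 and -0.37 without Yaa 2 and Yaa 3. Only Fcgr4 with array weights passed limma's threshold, at 0.80 (limma adjusted p = 0.039, and 0.191 to 1 under the other alternatives). Fcgr2b ran from -0.45 to 0.19 and Fcer2a from -2.21 to 0.045 with 1 sample left out, both turning sign only without Yaa 3; Fcgr2b also turned to 0.0030 without Yaa 2 and Yaa 3 and to 0.052 as the mean over its probe sets. The 4 differences from Fcgr2b kept their direction and passed no test under 15 alternatives each. The count of Fc receptor probe sets higher at an unadjusted p under 0.05 was 1 with the signals as deposited, 1 with median-centred arrays and 1 to 4 with 1 sample left out (1 without wild type 4, 4 without Yaa 3); the count with groups that do not overlap was 0 and 1 in those scalings. Over all probe sets limma called 1. It called 0 with a pseudocount of 1 (1032 at an unadjusted p under 0.05), 0 under the stricter brightness filter (485), 143 with array weights, 105 without Yaa 2 and Yaa 3, and 0 to 30 with 1 sample left out (0 without Yaa 1 or Yaa 3, with 1018 and 1565 at an unadjusted p under 0.05, 30 without Yaa 2 and 10 without Yaa 4). With the replicate number as a block it called 0 (731 at an unadjusted p under 0.05), and Fcgr4 had a limma adjusted p of 1. Same-numbered samples did not deviate together (correlations -0.0053, 0.016, -0.37 and -0.13). These correlations cannot decide whether the numbers pair the samples, since Yaa 2 and Yaa 3 stood far from the rest. The cause of these shifts was not tested. Signal over background could not be assessed without detection calls.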

Other observations

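Lists of other spleen cells held few differences. Over the array, 45.8% of tested genes had a higher mean in Yaa and 2.97% of probe sets were higher at an unadjusted p under 0.05. Of 7 tested dendritic cell markers 6 had higher means in Yaa and 0 had an unadjusted p under 0.05, with Siglech, of plasmacytoid dendritic cells, at a log2 fold change of 0.31 ± 0.18 (SE). NK cell markers had higher means for 8 of 9 and 1 at an unadjusted p under 0.05, Nkg7, a granule gene, at 0.52 ± 0.22. Their list mean was 9.15 in Yaa 3 and at most 8.12 in the other Yaa samples, and its mean difference was 0.33 on the log2 scale with all samples and -0.0096 without Yaa 3. Marginal zone B cell markers had higher means for 2 of 7, with Myof at -0.54 ± 0.26 and Cd1d1 at -0.25 ± 0.20, and 0 at an unadjusted p under 0.05; their mean difference was -0.14 with all samples and 0.11 without Yaa 3. Plasma cell markers had higher means for 4 of 7, with Xbp1 at 0.48 ± 0.24, Tnfrsf17 at 0.42 ± 0.23 and 0 at an unadjusted p under 0.05, and a mean difference of -0.24 with all samples and 0.42 without Yaa 3. Limma called 0 genes of these lists.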
